A study of Mus musculus with 24 samples.

Results

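The Forkhead motif constructs FOXA1 and FOXD3 were 5 of the 62 constructs whose DNA methylation was read in each of 5 pools of mouse cells. FOXA1 was represented by a fragment with the wild-type (WT) motif and a fragment with a scrambled (Sc) motif, and FOXD3 by a WT fragment and the scrambled controls Sc1 and Sc2. They were chosen by name, with no measured value involved, and every one of them was present in all 5 pools. Each motif had been cloned at the centre of FR1, a bacterial DNA fragment of intermediate CpG content that has no counterpart in the mouse genome, and the fragments were inserted by cassette exchange into a prepared target site.

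The study, named Hi-TransMet, asked whether a pioneer factor lowers DNA methylation around its own motif, by comparing WT with Sc fragments in the same cells. Plasmids were inserted either untreated (−SssI) or after methylation in the test tube by M.SssI, a bacterial enzyme that methylates CpGs (+SssI). The pools were ESCs −SssI and ESCs +SssI (wild-type embryonic stem cells, C57BL/6 X 129S5), NPs −SssI and NPs +SssI (neuronal progenitors differentiated from such ESCs), and TET TKO +SssI (ESCs without TET1, TET2 and TET3, C57BL/6 X 129/sv). All groups were cell cultures that carried the whole motif library as a mixed population. The effect of the TET knockout and that of the strain background cannot be told apart in these pools. RNA-seq was made from the same 3 kinds of cells, with 3 libraries each, and it gives the levels of the forkhead genes themselves.

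Forkhead factors share a winged-helix DNA-binding domain. FOXA1, with FOXA2 and FOXA3, is a classic pioneer factor of endoderm and of organs such as liver, and it can bind its motif on nucleosomal DNA. FOXD3 is known for its role in pluripotent stem cells and in the early neural crest. FOXA1 and FOXD3 recognise related motifs, so a motif fragment does not by itself name the forkhead protein that reads it.

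Neither the FOXA1 nor the FOXD3 fragments had a CpG inside the motif, so all values come from the flanks that every fragment shares. There were 23 CpGs, 18 upstream from position −291 to position −32 and 5 downstream from position 37 to position 252, counted in bp from the motif. The upstream and downstream CpGs were covered by different reads, and CpGs on 1 side shared their reads, so that neighbouring CpGs are not independent measurements. The deposited table of each pool held several numbered columns of reads, here called runs (3 to 9 per pool), and the labels do not say which are biological and which technical replicates. The levels below are from reads summed over runs, as the study pooled them. Intervals therefore cover counting error only, at the median number of reads per CpG, and they hold no error between cultures.

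The median number of reads per CpG of a forkhead fragment ranged from 42 to 1103 in ESCs −SssI, from 77 to 649 in ESCs +SssI, from 157 to 499 in NPs −SssI, from 29 to 547 in NPs +SssI and from 76 to 161 in TET TKO +SssI. FOXA1 WT in NPs +SssI, with 29 reads, and FOXD3 Sc2 in ESCs −SssI, with 42, were the thinnest values. Δmet is the methylation level of WT minus that of Sc in percentage points, averaged over CpGs with at least 10 reads in both. A CpG was called lower or higher at a difference of 10 points and a Benjamini-Hochberg adjusted p under 0.05 (two-sided Fisher's exact test on reads). A hypomethylated region (HMR) was a stretch over 50 bp with at least 3 consecutive called CpGs. HMRs were common among all WT-Sc pairs of the library, the forkhead pairs included. They were found in 15 of 31 pairs in ESCs −SssI, 18 of 30 in ESCs +SssI, 10 of 31 in NPs −SssI, 15 of 30 in NPs +SssI and 8 of 31 in TET TKO +SssI.

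The median level over all constructs was 56.2% in ESCs −SssI, 64.5% in ESCs +SssI, 89.6% in NPs −SssI, 85.8% in NPs +SssI and 92.1% in TET TKO +SssI. The forkhead fragments did not all move with it. In ESCs −SssI the levels were 60.0% for FOXA1 WT, 56.0% for FOXA1 Sc, 64.4% for FOXD3 WT, 70.5% for FOXD3 Sc1 and 48.5% for FOXD3 Sc2. In ESCs +SssI they were 74.4%, 82.1%, 57.5%, 70.9% and 65.8% in the same order, so that FOXD3 WT was lower and FOXD3 Sc1 hardly different at +SssI. FOXA1 Sc was thus the most methylated of the 5 fragments in ESCs +SssI and FOXD3 WT the least. In NPs −SssI all 5 fragments lay between 85.4% and 93.1%, a narrow range. In NPs +SssI the 3 Sc fragments lay between 83.1% and 93.5%, FOXD3 WT was at 70.3% and FOXA1 WT, on few reads, at 61.6%. In TET TKO +SssI FOXA1 WT (92.9%), FOXA1 Sc (92.3%) and FOXD3 Sc1 (94.8%) stood above FOXD3 WT (79.9%) and FOXD3 Sc2 (83.5%).

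Some positions of FR1 were low in several WT and Sc fragments. Position 151 was the least methylated of the 23 CpGs in 13 of the 25 combinations of forkhead fragment and pool, and in 41% of the 283 combinations of the other constructs, with a tie given to the position farther upstream. In ESCs −SssI it was at 0% in FOXA1 WT and in all 3 FOXD3 fragments, in FOXD3 WT together with position 37. Positions −211 and −208 were the lowest in 6 further combinations, among them FOXD3 WT in ESCs +SssI, where position −208 was at 11.8%. The dips at these positions were thus not particular to the forkhead fragments. Levels there still differed between WT and Sc in places. At position 151 in TET TKO +SssI FOXA1 WT was at 97.1% and FOXA1 Sc at 70.1%.

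FOXA1 in ESCs −SssI showed opposite signs on the 2 sides of the motif. Upstream the WT fragment stood at 69.3% and the Sc fragment at 58.8%, while downstream WT stood at 26.5% and Sc at 45.9%. Over all 23 CpGs Δmet was 4.0 points (95% interval −2.67 to 10.7, with a median of 618 WT and 320 Sc reads), an interval that includes 0. The test called 4 CpGs lower and 9 higher, where 43.9% of the CpG tests of all WT-Sc pairs in this pool were called lower and 28% higher. The 3 CpGs from position 109 to position 252 formed an HMR, with WT at 22.4% and Sc at 54.7% on average. Its first CpG had a Δmet of −30.7 points and its last, at position 252, of −42.5 points (35.4% against 77.8%, adjusted p = 3.5e-09, Fisher's exact test). The highest Δmet was 25.8 points, at position −88 (86.7% against 60.8%).

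The sign of the upstream difference depended on how the runs were combined. FOXA1 WT was read at upstream levels of 79.1% in run 1, 76.4% in run 2 and 78.7% in run 5, but at 29.7% in run 4. FOXA1 Sc was at 87.6% in run 1, 89.1% in run 5 and 46.2% in run 4. Upstream, Δmet was therefore negative inside each run that held both, at −8.56 points in run 1, −10.4 points in run 5 and −16.5 points in run 4. Run 4 supplied 74.2% of the Sc reads and 21.5% of the WT reads, and it was the run with low methylation throughout, with a median of 33.0% over the 54 constructs it held. Runs 1, 2 and 5 differed from each other by less than the sampling noise in their fragment counts (chi-square p = 0.24 to 0.98), so they may be 1 library and are not 3 independent readings. Compared within runs, Δmet of FOXA1 in ESCs −SssI was −14.5 points with 15 of 23 CpGs lower and 0 higher, and the HMR from position 109 to position 252 was found again. The share called within runs over all WT-Sc pairs is not given, so these counts have no background beside them.

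In ESCs +SssI FOXA1 WT was at 74.4% and Sc at 82.1%, a Δmet of −7.67 points (95% interval −14.8 to −0.57, 649 and 144 reads). There were 10 CpGs called lower and 1 higher, against 48.2% and 13.6% of all tests in this pool, and no HMR. The lowest Δmet was −50.5 points at position −208 (35.6% against 86.1%, adjusted p = 1.6e-28, Fisher's exact test) and the highest 13.7 points at position 109. However, 98.7% of the WT reads came from run 7, which held no FOXA1 Sc reads, and 89.5% of the Sc reads came from run 5. The motif and the run cannot be told apart at the 18 upstream CpGs. At the 5 downstream CpGs, where run 5 held both, WT was at 80.0% and Sc at 81.2%, a difference of −1.20 points on 12 WT reads.

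FOXA1 in NPs −SssI showed little difference. WT stood at 89.1% and Sc at 86.3%, with a Δmet of 2.80 points (95% interval −1.89 to 7.48, 290 and 499 reads). The test called 1 CpG lower and 6 higher, against 30.4% and 15.7% of all tests. Δmet inside runs was 2.08 points in run 2, 3.25 points in run 9 and 0.39 points in run 10, on the CpGs with at least 10 reads of both. Runs 2 and 10 were alike in their fragment counts (chi-square p = 0.049) and may be 1 library. The extremes were −12.2 points at position −148 and 18.7 points at position 151. No region of lower or higher methylation was found.

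FOXA1 in NPs +SssI had the widest gap of all forkhead comparisons, 61.6% for WT against 93.5% for Sc. Δmet was −31.9 points (95% interval −49.7 to −14.0), the fourth lowest of the 30 WT-Sc pairs with at least 10 tested CpGs. There were 20 CpGs called lower and 0 higher, against 36.6% and 9.66% of all tests, and a single HMR covered all 18 upstream CpGs from position −291 (−59.2 points, 35.7% against 94.9%) to position −32 (−42.5 points). The highest Δmet, 8.42 points at position 37, was not called.

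Upstream, this value rests mostly on 21 reads. They came from run 12, where FOXA1 WT was the only construct with any reads and had exactly 21 at every upstream CpG, with 54.2% methylated. The other runs together held 7 or 8 reads of FOXA1 WT per upstream CpG, of which 78.9% were methylated, too few to pass the minimum of 10 reads. At the 5 downstream CpGs the WT reads came from other runs than run 12, with a median of 10 per CpG. WT was at 64.0% there and Sc at 85.4%, a Δmet of −21.4 points. FOXA1 Sc was read in runs 1, 2, 8, 9 and 10 at upstream levels of 98.8%, 96.7%, 90.2%, 96.0% and 95.4%, and not at all in run 12. A column with the number 12 existed only in the ESC −SssI and NP +SssI tables, the pools for which the labels list a second sample read by Sanger capillary sequencing, and in ESCs −SssI it also held a single construct, which was no forkhead fragment. Which column holds the Sanger reads is not stated. No run allowed a comparison of FOXA1 WT and Sc side by side in NPs +SssI.

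In TET TKO +SssI FOXA1 WT was at 92.9% and Sc at 92.3%, with a Δmet of 0.54 points (95% interval −5.88 to 6.95, 108 and 154 reads). There were 1 CpG called lower and 4 higher, against 19.9% and 22.4% of all tests, and no region. The 2 sides differed, with a Δmet of −3.27 points upstream and 14.2 points downstream. The downstream difference was 17.9 points in run 9, 14.8 points in run 10 and 12.4 points in run 11, so that WT exceeded Sc in every one of the 3 runs. The lowest Δmet, −16.2 points, was at the CpG nearest to the motif on the upstream side, position −32 (80.6% against 96.8%, adjusted p = 0.00010, Fisher's exact test), and the highest was 27.0 points at position 151.

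FOXD3 in ESCs −SssI differed from its 2 controls in opposite directions. WT was at 64.4%, below Sc1 at 70.5% and above Sc2 at 48.5%. Δmet was −6.15 points against Sc1 (95% interval −10.7 to −1.56, 639 and 1103 reads) and 15.9 points against Sc2 (95% interval 0.34 to 31.5), for which only 42 reads per CpG were available. Against Sc1 the test called 8 of 23 CpGs lower and 3 higher, and against Sc2 1 lower and 13 higher, where 43.9% of all tests in this pool were called lower and 28% higher. The lowest Δmet against Sc1 was −51.0 points at position 37, the CpG nearest to the motif on the downstream side, where WT was at 0% and Sc1 at 51.0% (adjusted p = 5.4e-11, Fisher's exact test). With reads summed over runs, no HMR was found against either control, and the 7 CpGs from position −208 to position −103 formed a region of higher methylation against Sc2 (79.5% against 48.0%).

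The levels again differed between runs. FOXD3 WT was at upstream levels of 81.3%, 79.5% and 81.8% in the look-alike runs 1, 2 and 5, at 28.1% in run 4 and at 59.6% in run 6. FOXD3 Sc1 was at 79.4%, 78.3% and 79.0% in runs 1, 2 and 5 and at 5.72% in run 3, while 75.1% of the Sc2 reads came from run 4, at 45.3%. In the deep runs 1 and 5, which compare the upstream CpGs alone, FOXD3 WT and Sc1 thus lay within 3 points of each other, with WT 1.90 and 2.84 points higher. At the 5 downstream CpGs, which include position 37, Δmet against Sc1 was 18.6 points in run 3 and −52.4 points in run 6, on 16 to 21 reads. Within runs Δmet against Sc1 was −2.15 points over all 23 CpGs, and the CpGs from position −166 to position −103 formed a region of higher methylation (mean 17.7 points). Within run 4, the only run with enough reads of WT and Sc2, WT was 15.0 points below Sc2, the opposite sign of the pooled value. An HMR from position −88 to position −32 was found there, with a mean of −34.3 points.

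In ESCs +SssI FOXD3 WT (57.5%) was below Sc1 (70.9%) and Sc2 (65.8%). Δmet was −13.4 points against Sc1 (95% interval −25.1 to −1.67, 77 and 520 reads) and −8.31 points against Sc2 (95% interval −20.2 to 3.58, 77 and 447 reads). There were 11 of 23 CpGs called lower and 3 higher against Sc1, and 8 lower and 3 higher against Sc2. These counts of lower CpGs were no larger than the 48.2% of all tests called lower in this pool, and 13.6% were called higher. An HMR of 3 CpGs that spans the motif, from position −32 to position 46, was found against both controls. WT was at 39.4% there, Sc1 at 72.3% and Sc2 at 66.2%. At its 2 ends Δmet was −21.8 and −35.9 points against Sc1, and −14.2 and −23.0 points against Sc2. At position 37, just downstream of the motif, WT was at 21.8% and Sc2 at 64.9% (adjusted p = 1.7e-27, Fisher's exact test). The lowest Δmet against Sc1 was −45.1 points at position −101, and the highest was 19.1 points at position 151, inside a region of higher methylation from position 109 to position 252 (60.4% against 43.9%). The highest Δmet against Sc2 was 21.1 points, at position −178.

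The HMR around the FOXD3 motif was still found against Sc1 when WT and Sc were compared within runs, with a mean of −21.5 points, and it was not found against Sc2. FOXD3 WT was at 52.4% in run 4 and 65.3% in run 5 over the 23 CpGs, Sc1 at 52.0% and 71.5%, and Sc2 at 40.7% and 69.2%. The difference between the runs exceeded the differences between fragments inside them. WT supplied 60.9% of its reads from run 4, while Sc1 took 92.7% and Sc2 81.8% of theirs from run 5. Within runs the mean Δmet was −5.36 points against Sc1 and 2.28 points against Sc2.

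In NPs −SssI the FOXD3 comparisons were small and again opposite in sign. WT was at 90.5%, Sc1 at 85.4% and Sc2 at 93.1%, so Δmet was 5.09 points against Sc1 (95% interval 0.27 to 9.90) and −2.66 points against Sc2 (95% interval −7.58 to 2.26). Against Sc1 0 CpGs were called lower and 6 higher, and against Sc2 4 lower and 2 higher, against 30.4% and 15.7% of all tests. Over the runs the upstream level of FOXD3 WT ranged from 83.5% in run 8 to 99.7% in run 6. The largest differences were 22.5 points at position −90 against Sc1, and −16.4 points at position −208 and 20.8 points at position 151 against Sc2. The lowest Δmet against Sc1 was −7.26 points, at position −148.

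In NPs +SssI FOXD3 WT, at 70.3%, was below Sc1 at 87.9% and Sc2 at 83.1%. Δmet was −17.6 points against Sc1 (95% interval −25.0 to −10.3, 172 and 547 reads) and −12.8 points against Sc2 (95% interval −20.7 to −4.95, 172 and 359 reads). There were 17 CpGs called lower and 0 higher against Sc1, and 13 lower and 1 higher against Sc2, where 36.6% of all tests were called lower and 9.66% higher. The HMR against Sc1 held 12 CpGs from position −208 (−22.4 points) to position −32 (−36.8 points, 57.4% against 94.2%, adjusted p = 2.6e-26, Fisher's exact test). The HMR against Sc2 held the 3 CpGs from position −88 (−33.6 points) to position −32 (−22.3 points). The highest Δmet was at position 109 against both controls, −1.23 points against Sc1 and 14.9 points against Sc2.

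A large upstream difference was present in 1 of the runs. The upstream level of FOXD3 WT was 17.1% in run 1, on 50 reads per CpG, and 87.0% in run 2, 91.7% in run 9 and 88.1% in run 10. In the same run 1 Sc1 was at 94.4% and Sc2 at 81.9%, and FOXD3 WT was the least methylated of the 41 constructs read there, whose median was 83.4%. Without run 1 FOXD3 WT was at 86.4%, Sc1 at 84.4% and Sc2 at 84.3%. Δmet was then 2.01 points against Sc1 and 2.10 points against Sc2, and 0 HMRs were found against either control. These summed values include run 8, where Sc1 was at 72.6% and Sc2 at 67.3%. Run 8 supplied 19.3% of all Sc1 reads and 22.0% of all Sc2 reads, but 1.53% of the WT reads. Inside runs 2, 9 and 10 Δmet was −4.96, −1.04 and −0.88 points against Sc1 and −8.45, −4.92 and −0.32 points against Sc2. Upstream alone it was −3.76, 0.34 and 1.35 points against Sc1 and −9.01, −4.62 and 1.06 points against Sc2. Downstream it was negative in each of these runs, at −9.26, −6.00 and −8.93 points against Sc1. Against Sc2 the downstream values were −6.42, −5.98 and −5.31 points. The low level of FOXD3 WT in NPs +SssI was thus read in run 1 and in none of runs 2, 9 and 10.

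In TET TKO +SssI FOXD3 WT, at 79.9%, was below Sc1 at 94.8% and close to Sc2 at 83.5%. Δmet was −14.9 points against Sc1 (95% interval −22.9 to −7.01, 161 and 76 reads) and −3.63 points against Sc2 (95% interval −12.7 to 5.47, 161 and 119 reads). There were 15 of 23 CpGs called lower and 1 higher against Sc1, and 3 lower and 0 higher against Sc2, with 19.9% of all tests called lower and 22.4% higher. Against Sc1 there were 2 HMRs, of 8 CpGs from position −211 (−28.4 points) to position −103 (−18.5 points) and of 4 CpGs from position −90 (−19.8 points) to position −32 (−19.9 points). No HMR was found against Sc2. The lowest Δmet was at position −208 for both controls, −35.9 points against Sc1 (61.5% against 97.4%) and −16.7 points against Sc2. The highest was 35.4 points at position −235 against Sc1, where Sc1 was at 42.1% while its neighbours were nearly fully methylated, and 9.16 points at position −101 against Sc2. The upstream reads of all 5 fragments in this pool came from run 10 but for 1 or 2 reads per CpG, so no second run bears on the upstream differences. At the 5 downstream CpGs FOXD3 WT was at 99.3%, 97.3% and 97.1% in runs 9, 10 and 11, and both controls were at 98.6% or higher.

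The 2 scrambled controls of FOXD3 measure how far fragments without the WT motif differ from each other. Sc1 minus Sc2 was 22.1 points in ESCs −SssI (95% interval 6.70 to 37.4, on 42 Sc2 reads), 5.07 points in ESCs +SssI (95% interval −0.81 to 10.95), −7.75 points in NPs −SssI (95% interval −13.3 to −2.24), 4.81 points in NPs +SssI (95% interval 0.07 to 9.55) and 11.3 points in TET TKO +SssI (95% interval 3.00 to 19.6). The interval excluded 0 in 4 of the 5 pools, but without run 1 the value in NPs +SssI was 0.09 points. In TET TKO +SssI the controls formed a region of 13 CpGs from position −211 to position −32, with Sc1 at 97.9% and Sc2 at 78.7%, longer than either HMR of the WT fragment against Sc1 in that pool. The difference between the controls was larger than that between WT and Sc1 in ESCs −SssI and NPs −SssI, and it was smaller in the other 3 pools. It also exceeded the difference between WT and Sc2 in ESCs −SssI, NPs −SssI and TET TKO +SssI. In ESCs −SssI, where no run held 10 reads of both at any CpG, it was also a difference between runs.

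The differences between pools were tested at each CpG as an interaction of fragment and pool (likelihood-ratio test, adjusted over all WT-Sc pairs). The test works on the odds of methylation, while lower and higher give the sign of the difference in points. Counts of called CpGs and intervals of the mean in points are thus on different scales. For FOXA1, Δmet was lower in NPs than in ESCs at +SssI by 24.2 points (95% interval −43.4 to −4.94), with 16 CpGs lower and 0 higher, against 26.9% and 35.9% of all tests. In NPs it was lower by 34.7 points at +SssI than at −SssI, with 19 CpGs lower and 0 higher, against 29.9% and 26.7%. Both of these contrasts use the 21 reads of run 12. In ESCs Δmet of FOXA1 was lower by 11.7 points at +SssI than at −SssI, with 11 CpGs lower and 4 higher against 36.8% and 25.9%. The difference between NPs and ESCs at −SssI was −1.21 points (95% interval −9.36 to 6.94), with 9 lower and 6 higher against 25.8% and 36%. Both of the last contrasts use the summed Δmet of ESCs −SssI, 4.0 points, which was −14.5 points within runs. Between TET TKO and ESCs at +SssI the difference was 8.21 points (95% interval −1.36 to 17.8), with 4 CpGs lower and 8 higher against 13.7% and 37.4%. The contrasts with ESCs +SssI compare WT and Sc reads that came mostly from different runs.

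With reads summed over runs, the direction of the FOXD3 differences between pools depended on the control in the −SssI comparison. NPs minus ESCs at −SssI was 11.2 points with Sc1 as the reference, with 4 CpGs lower and 12 higher, and −18.6 points with Sc2, with 11 lower and 3 higher, against 25.8% and 36% of all tests. The value with Sc2 uses the 42 Sc2 reads of ESCs −SssI. Compared within runs, Δmet against Sc1 was −2.15 points in ESCs −SssI and 7.44 points in NPs −SssI. Against Sc2 it was −15.0 and −2.33 points, so it was higher in NPs with either control. The difference between these within-run values was not tested. At +SssI NPs and ESCs differed by −4.24 points with Sc1 and −4.50 points with Sc2, and both intervals of the mean included 0 (−18.1 to 9.59 and −18.7 to 9.75). Single CpGs differed in both directions, 10 lower and 6 higher with Sc1 and 13 lower and 5 higher with Sc2, against 26.9% and 35.9% of all tests. TET TKO minus ESCs at +SssI was −1.57 points with Sc1 (95% interval −15.7 to 12.6) and 4.68 points with Sc2 (95% interval −10.3 to 19.6). The test called 11 CpGs lower and 1 higher with Sc1 (smallest adjusted p = 1.8e-05, likelihood-ratio test) and 2 lower and 3 higher with Sc2, against 13.7% and 37.4%. The mean over the 23 CpGs thus had an interval that includes 0 with either control. The 11 CpGs with a lower Δmet in TET TKO with Sc1 as the reference were called on odds, so their count does not bear on the mean in points. In ESCs the difference between +SssI and −SssI was −7.23 points with Sc1 (95% interval −19.8 to 5.35) and, on the 42 Sc2 reads, −24.2 points with Sc2, with 9 CpGs lower and 3 higher and 14 lower and 1 higher, against 36.8% and 25.9%. In NPs Δmet was lower by 22.7 points at +SssI than at −SssI with Sc1, with 20 CpGs lower and 0 higher, and by 10.1 points with Sc2, with 3 lower and 2 higher, against 29.9% and 26.7%. Without run 1 of NPs +SssI the NP difference with Sc1 was −3.08 points.

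RNA-seq showed which forkhead genes these cells expressed. Totals were 20519702 to 23976914 counts per library in ESCs and NPs and 80704741 to 93210102 in TET TKO ESCs. ESC markers (Pou5f1, Nanog, Zfp42, Esrrb and Klf4) summed to 1189 to 1232 RPKM in ESCs, 674 to 813 in TET TKO ESCs and 4.90 to 8.49 in NPs. NP markers (Pax6, Nes, Sox1, Neurog2 and Hoxb4) summed to 4.39 to 5.44, 8.77 to 18.5 and 142 to 193 RPKM in these groups, each highest in the cells labelled as such. In the knockout Tet1 fell by 2.28 and Tet2 by 2.94 on the log2 scale against ESCs (edgeR, adjusted p = 8.7e-05 and 1.7e-05), while Tet3 was low in both, at 0.72 RPKM in ESCs and 0.55 in TET TKO ESCs. The labels do not say which exons were deleted, and counts per gene also hold reads from the rest of the transcript. In bulk RNA, fewer cells of a type and less RNA per cell cannot be told apart.

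Foxa1 and Foxd3 had opposite patterns. Foxa1 (GRCm38, chr12:57540628-57546916, minus strand) was read at 0.45, 0.45 and 0.24 RPKM in the 3 ESC libraries, at 18.0, 10.8 and 16.0 RPKM in NPs, and at 0.12, 0.076 and 0.13 RPKM in TET TKO ESCs. The ESC and NP libraries did not overlap. Foxa1 was 39.1-fold higher in NPs than in ESCs (log2 fold change 5.29 ± 0.32 SE, edgeR adjusted p = 3.8e-06), and 12.4% of all 15197 tested genes were called higher in NPs, at a fold change of 3 and an adjusted p under 0.001. Foxd3 (GRCm38, chr4:99656299-99658622, plus strand) was read at 20.5, 24.2 and 16.2 RPKM in ESCs, 2.91, 1.84 and 1.30 RPKM in NPs and 4.90, 9.78 and 5.33 RPKM in TET TKO ESCs. It was the third most abundant forkhead gene in ESCs and the 21st of 44 in NPs. It fell by 3.34 on the log2 scale in NPs (SE 0.30, edgeR adjusted p = 2.9e-05), where 9.98% of tested genes were called lower. Foxa1 RNA was thus near its lowest in ESCs, and Foxd3 RNA was lowest in NPs. The RNA was read in other samples than the methylation pools, and protein levels of the factors are not given here.

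In TET TKO ESCs Foxd3 had a log2 fold change of −1.62 against ESCs (SE 0.28), with an edgeR adjusted p of 0.0046, which missed the limit of 0.001. All 3 TET TKO libraries were below all 3 ESC libraries. No forkhead gene was called between TET TKO and ESCs by edgeR, of 21 tested, 14 of which had an unadjusted p under 0.05, where 1.1% of 13939 genes were called higher and 1.21% lower. The share of all genes with such an unadjusted p is not given. DESeq2 called 2 forkhead genes in this comparison, Foxd3 among them, and 910 of all 13939 genes. Foxi3, with a log2 fold change of 2.30 ± 0.43 SE (edgeR adjusted p = 0.0058), had the largest difference among the 21.

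The FOXA and FOXD relatives of the motif factors differed among themselves in NPs. Foxa2, like Foxa1 a gene of endoderm, rose from 0.17 to 10.1 RPKM (means of 3, log2 fold change 5.93 ± 0.42 SE), while Foxa3, at 0.91 RPKM in ESCs and 0.27 in NPs, was not called. Foxd1 and Foxd2 rose to 2.87 and 4.66 RPKM in NPs from below 0.1 RPKM in ESCs (log2 fold changes 5.04 and 6.79), and Foxd4 was not called. Endoderm markers (Sox17, Gata4, Gata6, Afp and Ttr) summed to 1.02 to 1.71 RPKM in ESCs and to 8.89 to 13.6 in NPs, with all 5 above 0 in every NP library. This list moved with Foxa1 and Foxa2, and its part in the result was not tested.

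Across the 44 forkhead genes, 33 passed the expression filter for NPs against ESCs, 12 were called higher and 5 lower, where 12.4% and 9.98% of all tested genes were. The filter kept genes that reach 1 RPKM in any library, so genes expressed in 1 group only are favoured among those 33. The other 7 genes called higher, beside Foxa1, Foxa2, Foxd1, Foxd2 and Foxe3, were Foxb1, Foxc1, Foxc2, Foxf1, Foxl2, Foxp2 and Foxp4. Foxb1 had 0, 1 and 1 counts in ESCs and 590, 529 and 546 in NPs, and Foxe3 had 0 in every ESC library and 47, 18 and 28 counts in NPs. Foxc2 was uneven among the NP libraries, with 442, 543 and 66 counts. Foxh1, a SMAD partner of the early embryo, was the most abundant forkhead gene in ESCs at 29.6 RPKM and fell by 4.54 on the log2 scale. Foxr1, Foxr2 and Foxn2 fell too, with log2 fold changes of −4.68, −2.58 and −1.68.

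The most abundant forkhead genes were not those of the 2 motifs except for Foxd3 in ESCs. In ESCs they were Foxh1, Foxp4 (26.8 RPKM), Foxd3 (20.3), Foxm1 (20.2) and Foxo3 (19.6), where the last 3 did not differ beyond their spread. In NPs they were Foxp4 (96.8 RPKM), Foxk2 (36.3), Foxm1 (32.5), Foxk1 (15.7) and Foxo4 (15.3), with Foxa1 at rank 7 and 14.9 ± 3.74 RPKM (SD, n = 3). In TET TKO ESCs they were Foxh1 (49.1 RPKM), Foxo4 (29.6), Foxk2 (22.9), Foxm1 (21.8) and Foxp4 (16.3). Foxm1, a gene of dividing cells, and Foxp4 were among the 5 highest in every group.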

How the data were processed

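Bisulfite amplicon reads of the pools were trimmed (Trim Galore 0.4.4), sorted by motif, mapped with Bismark 0.20.0 and deduplicated by molecular identifier by the authors, who left out the filter on non-CG methylation in TET TKO cells. Per CpG and run, the deposited tables give raw counts, once for all reads and once for the methylated ones. RNA-seq reads were aligned with STAR 2.6.1b and counted by the authors with featureCounts 1.6.2, and the deposited values are raw counts per gene, with coordinates on GRCm38 and gene lengths in the same tables. Counting ignored strand, so a gene that overlaps exons of a gene on the opposite strand, as at Foxb1, may share its reads. Foxd3 overlaps another gene on its own strand, where strand would not separate the reads.

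Here, reads were summed over runs and CpGs from position −300 to position 260 with at least 10 reads in both fragments were tested per pool by two-sided Fisher's exact test in scipy 1.17.1, adjusted by Benjamini-Hochberg over the CpGs of all 31 WT-Sc pairs. DSS, the dispersion-shrinkage model of the study, was not used. Within-run values are Mantel-Haenszel risk differences with the Cochran-Mantel-Haenszel test. Intervals are 95% and normal, from the median reads. The forkhead genes were tested with edgeR 4.0.16 (quasi-likelihood, TMM, RPKM of at least 1 in 1 library), with DESeq2 1.42.0 as an alternative. RPKM and all fold changes were computed here. The procedures were tested on simulated data. The constructs, gene lists and comparisons were chosen with earlier results of these data known. All 5 constructs, Foxa1, Foxd3, called forkhead genes and the 5 most abundant per group are named, with the lowest and highest CpG of each comparison and the ends of each HMR. Foxi3 was named after its value was seen. The authors' tables of methylation percentages and the single-line and siRNA tables were not used. Whether RNA libraries came from separate cultures is not given in the sources used here, so p-values measure the spread between these libraries. The construct sequences are not printed here, and 2 further marker lists are not reported here.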

Additional observations from a re-analysis of the deposited data

Results flagged for a closer look

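Run levels were compared with Dixon's test in 13 groups of 4 or more runs of 1 forkhead fragment on 1 side of the motif, and 3 runs lay apart from the others. The limit of the test, about 1 in 20 by chance, holds for independent runs. In both flagged groups of ESCs −SssI the other runs were 1, 2 and 5, which may be 1 library, so this rate does not apply there. FOXA1 WT in ESCs −SssI was at 29.7% in run 4, with 76.4% as the nearest of the other 3 upstream values. FOXD3 Sc1 in ESCs −SssI was at 5.72% in run 3, with 78.3% as the nearest. FOXD3 WT in NPs +SssI was at 17.1% in run 1, with 87.0% as the nearest. Each of these runs also stands behind a comparison in the report, and what sets the runs apart was not tested.

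The Δmet of the forkhead fragments differed between pools by more than its counting error in 8 contrasts. For FOXA1 these were NPs minus ESCs at +SssI (−24.2 points), +SssI minus −SssI in ESCs (−11.7 points) and +SssI minus −SssI in NPs (−34.7 points). The first and the last rest, at the upstream CpGs, on the 21 reads of run 12. The second uses the summed Δmet of ESCs −SssI, 4.0 points, which was −14.5 points within runs. For FOXD3 with Sc1 as the reference they were NPs minus ESCs at −SssI (11.2 points) and +SssI minus −SssI in NPs (−22.7 points). With Sc2 as the reference they were NPs minus ESCs at −SssI (−18.6 points) and +SssI minus −SssI in ESCs (−24.2 points), both on the 42 Sc2 reads of ESCs −SssI, and +SssI minus −SssI in NPs (−10.1 points). With reads summed over runs, the contrasts at −SssI with Sc1 and Sc2 have opposite signs. Within runs, Δmet of FOXD3 was higher in NPs −SssI than in ESCs −SssI with either control.

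Reads also covered 16 CpGs of FR1 outside the window used in the comparisons, 5 from position −379 to position −330 and 11 from position 387 to position 481, almost only in the −SssI pools. In ESCs −SssI the upstream 5 were at 58.7% in FOXD3 WT and at 0% in FOXD3 Sc1, on 30 and 34 reads, and the downstream 11 were at 51.0% and 62.4%, on 38 reads each. In NPs −SssI the upstream 5 were at 100% in FOXD3 WT and in FOXD3 Sc1 and at 87.6% in FOXD3 Sc2. The downstream 11 were at 88.7% in FOXA1 Sc, 98.3% in FOXD3 Sc1 and 95.6% in FOXD3 Sc2 in the same pool. No comparison of WT and Sc was made on these CpGs.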

How the results depend on the processing

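Compared within runs, Δmet in ESCs −SssI was −14.5 points for FOXA1, against 4.0 summed over runs, and −15.0 points for FOXD3 against Sc2, against 15.9. With the share of all methylated calls in place of the mean over CpGs, FOXA1 in ESCs −SssI was at 11.1 points. With the mean of all Sc fragments as the reference, Δmet was 8.27 points for FOXD3 in ESCs −SssI (own control Sc1), 6.65 points for FOXA1 in ESCs +SssI and 2.71 points for FOXD3 in NPs −SssI (own control Sc2). With the fragment that has no motif as the reference it was 4.11 points for FOXD3 in ESCs −SssI, 11.2 points for FOXA1 in ESCs +SssI and −0.53 points for FOXD3 in NPs −SssI, opposite in sign to the values against Sc1 (FOXD3) and Sc (FOXA1). The 4.11 and −0.53 points have the signs of the values against Sc2. In the +SssI pools FOXD3 kept its sign with both references, the mean of all Sc fragments given first. It was at −10.3 and −5.74 points in ESCs, −16.4 and −17.3 in NPs and −8.74 and −9.43 in TET TKO. FOXA1 was at −25.1 and −26.0 points in NPs +SssI and at 4.25 and 3.55 in TET TKO. In the −SssI pools FOXA1 was at 3.88 and −0.29 points in ESCs and at 1.37 and −1.87 in NPs. The differences between pools with Sc2 as the reference were −18.6 points for NPs minus ESCs at −SssI, −24.2 points for +SssI minus −SssI in ESCs and −10.1 points in NPs. Leaving out run 1 of NPs +SssI, an alternative added after seeing the data, moved the FOXD3 difference between NPs and ESCs at +SssI to 15.4 points and that between +SssI and −SssI in NPs to −3.08 points.

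Leaving out each run in turn, Δmet of FOXA1 ranged from −9.70 points (without run 4) to 4.14 points in ESCs −SssI, from −10.7 to 15.7 points (without run 5) in ESCs +SssI and from 0.49 to 13.9 points (without run 10, which leaves the downstream CpGs) in TET TKO +SssI. In NPs +SssI it ranged from −35.1 (without run 1, which leaves the upstream CpGs) to −21.4 points (without run 12, which leaves the downstream CpGs). FOXD3 against Sc1 ranged from −12.8 (without run 3) to 0.19 points (without run 4) in ESCs −SssI, from −13.4 to 0.35 points (without run 5) in ESCs +SssI, from −30.0 (without run 10) to 2.01 points (without run 1) in NPs +SssI and from −15.1 to −1.38 points (without run 10) in TET TKO +SssI. FOXD3 against Sc2 ranged from 6.44 (without run 4) to 17.7 points in ESCs −SssI, from −8.31 to 11.7 points (without run 5) in ESCs +SssI and from −24.5 (without run 10) to 2.10 points (without run 1) in NPs +SssI. Sc1 minus Sc2 ranged from 3.03 (without run 4) to 27.7 points in ESCs −SssI, from 2.34 to 11.4 points (without run 5) in ESCs +SssI, from 0.09 (without run 1) to 8.56 points (without run 2) in NPs +SssI and from −0.14 (without run 10) to 11.6 points in TET TKO +SssI.

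Over the 5 pools FOXA1 had 2 HMRs, FOXD3 had 4 against Sc1 and 2 against Sc2. FOXA1 had 1 when at least 5 CpGs or at least 50 reads were asked for, and 1 within runs. Within runs FOXD3 had 5 against Sc1 and 3 against Sc2. With a limit of −20 points FOXD3 had 2 against Sc1 and 1 against Sc2, and with at least 5 CpGs it had 2 and 0. Leaving out single runs gave 1 to 2 for FOXA1, 2 to 5 for FOXD3 against Sc1 and 1 to 4 against Sc2. Smoothing over 50 bp, no criterion on p and at least 20 reads kept these counts within 1.5 times. Counting look-alike runs once changed no sign of a Δmet whose interval excludes 0.

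The replicate numbers of the RNA libraries were not taken as pairs in the main fit. The correlations of same-numbered libraries were −0.063, 0.015 and −0.13 for ESCs and NPs. They were −0.090, 0.34 and 0.24 for ESCs and TET TKO ESCs, so not all were above 0.1. With so few libraries per group these correlations cannot exclude pairing. With the replicate block 17 forkhead genes were called in NPs, as without it, and 1 between TET TKO and ESCs, against 0, with an edgeR adjusted p of 0.00025 for Foxd3. DESeq2 and the fit with no filter on low counts called 2 each in TET TKO. Of all genes in TET TKO, edgeR called 322 of 13939 and, with the replicate block, 674 of 13939. DESeq2 called 910 of 13939, and the fit with no filter 1263 of 33796. In NPs 3415 of 15197 genes were called with the block and 3408 without it. Depth limits FOXA1 WT in NPs +SssI and FOXD3 Sc2 in ESCs −SssI most, and the pools have no replicate cultures that can be told apart.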
